A study of Mus musculus with 44 samples.

Results

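The arrays described here are 7 of the 44 in the series: 3 of recombined HexERTVP2 clone 2 and 4 of recombined HexERTVP2 clone 1, both grown without 4-hydroxytamoxifen (4-OHT). They were chosen by their labels alone, and the question they answer is which expression differences between the 2 clones were present once the inserted gene had been recombined. All cells came from CGR8, a mouse embryonic stem (ES) cell line, subclone cgr8.8, and all but the wild-type cells carried an insertion at Rosa26, a locus active in most mouse cells. HexERTVP2 is, as its name reads, the homeodomain protein Hex (gene symbol Hhex) joined to an oestrogen receptor domain and a VP activation domain. 4-OHT is a ligand of such receptor domains. What recombination does to the insertion is not stated in the labels, and no promoter for it is named. Each of the 2 is a single clone, so a difference between them cannot be told apart from any other difference between 2 clones. The same contrast was read in 3 further pairs of groups: recombined clone 2 and clone 1 with 4-OHT (3 and 4 arrays), unrecombined clone 2 and clone 1 without 4-OHT (3 and 5 arrays), and unrecombined clone 2 and clone 1 with 4-OHT (3 and 3 arrays). There were 4 arrays of unmodified wild-type cells. The titles of 4 further arrays contradict themselves on the clone or the treatment, and these arrays entered no comparison.

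Cloned lines of ES cells descend from 1 cell each and can differ in ways that culture carries forward. Imprinted genes, which are normally expressed from only the maternal or only the paternal copy under the control of DNA methylation, are known to vary between ES cell lines and subclones. Genes for smooth-muscle actin, annexins, keratins and galectins mark adherent or differentiating cells more than undifferentiated ES cells, and many actin genes respond to serum response factor, which binds the CArG box.

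RNA was measured on single-colour Affymetrix MG-U74Av2 arrays, on which a probe set is a group of short oligonucleotides for 1 transcript. Values are log2 of the deposited intensity, relative within a probe set, and errors of differences are standard errors of the fit. The median intensity of the 44 arrays lay between 106 and 112, and no pair of arrays held identical values. The arrays are intensities with no counts behind them, so their number limits the precision. Whether the arrays within a group represent separate cultures is not stated, so p-values measure the spread between these arrays, which may be technical. The log2 ratio of the 3′ to the 5′ β-actin control, which rises as RNA is shortened, was 1.18, 0.91 and 1.44 in recombined clone 2, against 1.59, 0.73, 2.34 and 1.67 in recombined clone 1. On this measure 3 of the 4 clone 1 arrays lay above every clone 2 array. With the ratio as a covariate, 94 probe sets were called between the recombined clones in place of 60. One array of another group (unrecombined Hex, array 2) correlated with the rest at 0.869 on average and was left out of the fit with its group.

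Of 12422 probe sets, 60 (0.483%) differed between recombined clone 2 and recombined clone 1 at a Benjamini-Hochberg adjusted p under 0.05 in limma. Clone 2 was higher for 14 (0.113%) and lower for 46 (0.37%). The largest differences were falls in the imprinted gene Mest and in probe set 93028_at, a rise in Erdr1, and falls in smooth-muscle actin Acta2 and in annexin Anxa1. The 60 probe sets carry 50 distinct symbols, with 6 probe sets that have no symbol and 2 that have several. The arrays of the 2 clones did not overlap for any of the 60. Among all probe sets the arrays did not overlap for 4.65%, with clone 2 higher for 2.01% and lower for 2.64%. With no adjustment, 526 probe sets had p under 0.05. The count fell whichever array was left out: it was 31, 29 and 37 without clone 2 array 2, 3 and 4 in turn. Without clone 1 array 1, 2, 3 and 4 in turn it was 50, 53, 49 and 42. It was 33 when all 40 assigned arrays were fitted together, and 15 when only the 7 arrays were. Probe sets at the threshold were Spsb1 (adjusted p 0.0448) and Tagln (0.0472) inside it, and Morc4 (0.0543) and Rap2b (0.0549) outside it.

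The same contrast before recombination gave 1425 calls (11.5% of probe sets), 675 of them higher in clone 2 (5.43%) and 750 lower (6.04%). Of the 60 probe sets called in recombined cells, 16 were called in the same direction in unrecombined cells, which is 26.7% of the recombined calls and 1.12% of the unrecombined ones. Of these, 5 were higher in clone 2 and 11 lower. Without clone 2 array 3, or without clone 2 array 4, of the recombined group the count of 16 was 10. A further 4 (Col4a1, Col4a2, Emb and Isg15) were called in the opposite direction, and 40 were not called in unrecombined cells. The interaction of clone with recombination was called for 18 of the 60 (30%), against 1.07% of all probe sets. It shares its recombined arrays with the 60 calls. A missing call in unrecombined cells does not by itself show that a difference changed with recombination. The median size of the difference over the 60 was 0.711 log2 units in recombined and 0.243 in unrecombined cells, whereas over the 1425 unrecombined calls it was 0.0706 in recombined and 0.367 in unrecombined cells. Over all probe sets the medians were 0.0722 in recombined and 0.152 in unrecombined cells. The 60 were chosen in recombined and the 1425 in unrecombined cells, so a smaller median in the other state follows in part from that choice. The 2 comparisons share no arrays. The count in unrecombined cells varied widely with single arrays and was 401 without unrecombined clone 2 array 3, and 825, 874 and 818 without unrecombined clone 1 array 1, 3 and 4.

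**Figure D1:**
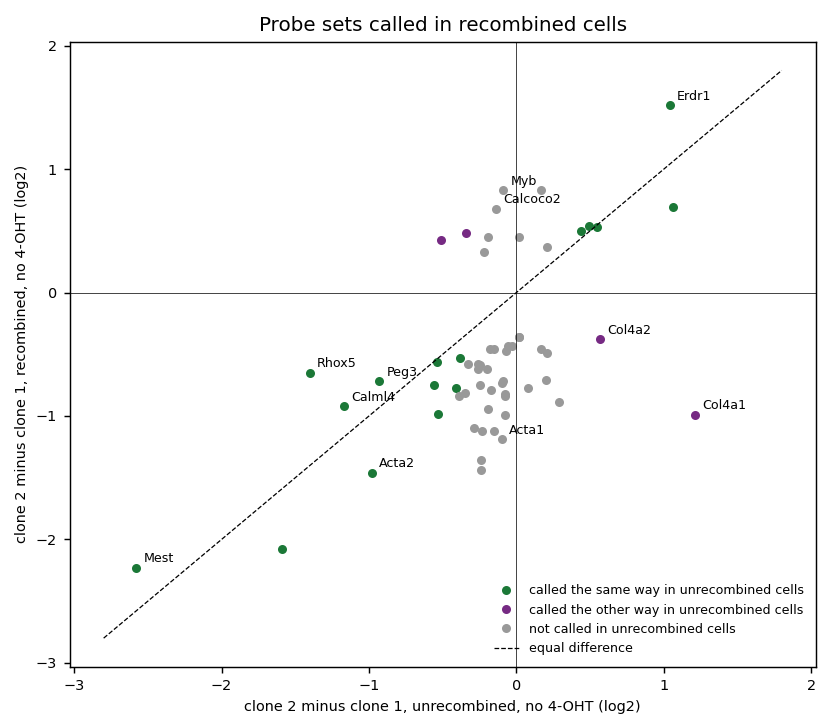
Difference between clone 2 and clone 1 (log2) for the 60 probe sets called in recombined cells, in recombined cells without 4-OHT (vertical axis) against unrecombined cells without 4-OHT (horizontal axis). Green points were called the same way in both (16), purple points the opposite way (4) and grey points only in recombined cells (40). A grey point need not have changed with recombination, since the interaction was called for 18 of the 60. The dashed line marks equal differences, and Mest and probe set 93028_at lie farthest to the lower left.

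Mest (probe set 92607_at, chromosome 6) is an imprinted gene expressed from the paternal copy. Its level was 6.78, 6.90 and 6.74 in recombined clone 2, against 8.76, 9.43, 8.85 and 9.09 in recombined clone 1. Every clone 2 array lay far below every clone 1 array. The difference of -2.23 ± 0.18 was a 4.68-fold lower level in clone 2 (adjusted p 3.59e-09, limma). It was present in each other state: -2.58 ± 0.17 in unrecombined cells (adjusted p 2.44e-11), -2.15 ± 0.18 in recombined cells with 4-OHT (8.02e-09) and -2.08 ± 0.19 in unrecombined cells with 4-OHT (2.53e-08). The interaction of clone with recombination was 0.35 ± 0.24 and did not pass (adjusted p 0.484). Wild-type cells lay between the clones: means were 6.81 ± 0.09 in recombined clone 2 (SD, n = 3), 9.03 ± 0.30 in recombined clone 1 (n = 4) and 7.96 ± 0.11 in wild type (n = 4). Recombined clone 2 differed from wild type by -1.16 (adjusted p 0.00059) and recombined clone 1 by 1.07 (0.000182). Over all probe sets, 34 (0.274%) differed between recombined clone 2 and wild type, 7 higher (0.0564%) and 27 lower (0.217%). Between recombined clone 1 and wild type 170 (1.37%) did, 62 higher (0.499%) and 108 lower (0.869%). These comparisons share their arrays with the comparison of the clones, so values against wild type are given side by side only.

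Probe set 93028_at, whose annotation pairs it with several symbols and which is therefore not named, followed the same order. It read 7.19, 7.04 and 7.23 in recombined clone 2, 9.24, 9.16, 9.25 and 9.28 in recombined clone 1, and 8.27 ± 0.04 on average in wild type (n = 4). The clones were again on either side of the wild-type arrays. The difference between clones was -2.08 ± 0.10 in recombined cells (adjusted p 1.99e-14) and -1.59 in unrecombined cells (2.75e-12).

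Peg3, an imprinted zinc-finger gene expressed from the paternal copy, was the further imprinted gene that was lower in clone 2 both before and after recombination. On probe set 101451_at (chromosome 7) it read 7.11, 6.72 and 6.68 in recombined clone 2, against 7.61, 7.57, 7.63 and 7.39 in recombined clone 1. The groups were separate but close, with clone 2 array 2 nearest to clone 1. The difference was -0.72 ± 0.14 (adjusted p 0.00614) in recombined cells and -0.93 (3.74e-05) in unrecombined cells. With 4-OHT it was -0.36 (0.65) in recombined and -0.73 (0.00723) in unrecombined cells. Another Peg3 probe set gave -0.55 ± 0.15 in recombined cells and did not pass (adjusted p 0.166), and a further one gave -0.21 (0.999).

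The promoters of these 2 imprinted genes, given as the 250 bases before the gene start in the RefSeq annotation of GRCm38.p6, are shown with each CpG, the dinucleotide at which mammalian DNA is methylated, in capitals. The Mest stretch (chr6:30737800-30738049, plus strand, the entry of 3 with the most CpG) held 14 CpG and the Peg3 stretch (chr7:6730420-6730669, minus strand, written 5′ to 3′ along the gene) held 8. The median over 32851 promoter entries was 6, with 29.4% of entries holding as many as Mest and 43.0% as many as Peg3. Methylation itself was not measured here.
Mest: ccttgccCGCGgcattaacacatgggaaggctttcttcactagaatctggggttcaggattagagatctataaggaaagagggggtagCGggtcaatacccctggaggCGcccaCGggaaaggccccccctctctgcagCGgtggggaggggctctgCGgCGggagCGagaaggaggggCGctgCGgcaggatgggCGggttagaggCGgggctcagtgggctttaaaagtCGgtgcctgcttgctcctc
Peg3: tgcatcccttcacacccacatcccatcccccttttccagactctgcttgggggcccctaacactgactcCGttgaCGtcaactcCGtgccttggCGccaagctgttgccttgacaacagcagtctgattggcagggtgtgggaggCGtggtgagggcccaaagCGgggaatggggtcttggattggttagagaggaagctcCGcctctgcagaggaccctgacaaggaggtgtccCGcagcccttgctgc

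Of 35 measured genes on the list of imprinted genes, each read on its brightest probe set, 3 fell in clone 2 (0.37% of all probe sets were called lower) and 0 rose (0.113% called higher), with a median difference of -0.014 against 0.00317 over all probe sets. Beside Mest these were Nnat, which encodes a brain proteolipid, and Sgce, which encodes ε-sarcoglycan. Peg3, called above on probe set 101451_at, was not among them. Nnat read 5.59, 5.47 and 5.45 in recombined clone 2, against 6.37, 6.56, 6.09 and 6.15 in recombined clone 1 (-0.79 ± 0.14, adjusted p 0.00209). It differed again with 4-OHT (-1.01, adjusted p 0.000111) and gave -0.17 in unrecombined cells (0.398). Sgce lies next to Peg10, an imprinted gene of retroviral origin, on mouse chromosome 6. Sgce differed by -0.36 ± 0.08 (adjusted p 0.0206) in recombined cells and by 0.02 in unrecombined cells. Peg10 gave -0.68 ± 0.19 and did not pass (0.202). Plagl1, an imprinted zinc-finger gene, was called on a dim probe set only (92502_at, -0.62, adjusted p 0.0136), while its brighter one gave -0.14 (0.999). Imprinted genes of other domains gave small differences, among them Igf2 at -0.24, Igf2r at 0.14, Meg3 at -0.04 and Dlk1 at -0.09, each with an adjusted p of 0.999.

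Rhox5, an X-linked homeobox gene whose expression in ES cells is sensitive to DNA methylation, was lower in clone 2 in all 4 states, but less so after recombination. It read 8.02, 7.87 and 8.04 in recombined clone 2, against 8.35, 8.53, 8.82 and 8.78 in recombined clone 1. Both groups lay below the wild-type mean of 9.19 ± 0.09 (n = 4). The clone difference was -0.65 ± 0.10 (adjusted p 0.000836) in recombined and -1.40 ± 0.10 (9.16e-11) in unrecombined cells, and these differed from each other by 0.75 ± 0.14 (interaction, adjusted p 0.00418). The mean of clone 2 was 7.97 ± 0.09 after recombination and 7.37 ± 0.16 before it (n = 3 each), and that of clone 1 was 8.62 ± 0.22 (n = 4) after it and 8.77 ± 0.11 (n = 5) before it. Rhox6, a neighbour in the same homeobox cluster, gave 0.10 ± 0.11 in recombined cells (adjusted p 0.999). Neither the maintenance DNA methyltransferase Dnmt1 (0.11, adjusted p 0.999) nor the de novo enzyme Dnmt3a (0.25, 0.999) was called.

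Calml4, a calmodulin-like gene, was the other fall that passed in all 4 states. It read 7.13, 6.97 and 6.90 in recombined clone 2, against 7.96, 7.64, 8.16 and 7.89 in recombined clone 1 (-0.92 ± 0.14, adjusted p 0.00075). Both clones were below wild type (8.48 ± 0.29, n = 4), by -1.48 (adjusted p 3.17e-07) for clone 2 and -0.56 (0.0256) for clone 1. The remaining falls shared with unrecombined cells were Acta2, the serine protease gene Prss23, the myelin protein gene Pmp22, Spsb1, the repressor gene Bhlhe40 and Dusp1, a phosphatase that acts on MAP kinases. Prss23 was 5.35, 5.39 and 5.36 in recombined clone 2, against 6.28, 6.43, 6.45 and 6.22 in recombined clone 1 (-0.98 ± 0.10, adjusted p 4.4e-07), and differed by -0.53 in unrecombined cells (0.000796).

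Erdr1, which RefSeq (GRCm38.p6) places on chromosome X and whose probe set belongs to a family with shared sequence, had the largest rise. It read 11.98, 12.23 and 11.97 in recombined clone 2, against 10.37, 10.91, 10.31 and 10.57 in recombined clone 1. Clone 2 was near the wild-type mean of 11.86 ± 0.26 (n = 4) and clone 1 was below all 4 wild-type arrays, the lowest of which read 11.54. The difference was 1.52 ± 0.19, or 2.86-fold (adjusted p 2.08e-05), with 1.04 (0.000649) in unrecombined cells, 1.26 (0.00042) in recombined cells with 4-OHT and 1.29 (0.000447) in unrecombined cells with 4-OHT. A second Erdr1 probe set (98526_r_at) gave 0.10 ± 0.11 and did not pass (adjusted p 0.999).

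Of the rises on chromosome 13, those of Tcstv1, Gm20767 and AF067061 were read on probe sets of the kind that matches gene families, so they may share signal. Tcstv1 is known from cleavage-stage embryos and from the rare ES cells that resemble them. It read 7.16, 7.19 and 7.14 in recombined clone 2, against 6.59, 6.55, 6.71 and 6.69 in recombined clone 1 (0.53 ± 0.11, adjusted p 0.0162), and the groups were well apart. It rose in clone 2 by 0.55 in unrecombined cells, 0.69 in recombined cells with 4-OHT and 0.85 in unrecombined cells with 4-OHT (adjusted p 0.00159, 0.00101 and 7.4e-05). Here clone 1 (6.64 ± 0.08, n = 4) was near wild type (6.58 ± 0.09, n = 4) and clone 2 (7.16 ± 0.03, n = 3) was above it (a difference of 0.58, adjusted p 0.0128). Gm20767 differed by 0.54 ± 0.12 (adjusted p 0.0259) and AF067061 by 0.50 ± 0.10 (0.00889). Of 6 measured genes on the list of cleavage-stage transcripts, Tcstv1 alone passed, against 0.113% of all probe sets called higher, and its relative Tcstv3 gave 0.42 ± 0.11 (0.0869). The call of Tcstv1 was lost in 6 of 18 alternative settings, among them those without clone 1 array 1 or 2 and those without clone 2 array 2, 3 or 4. Probe set 96215_f_at, with no symbol, was the fifth rise seen in all 4 states (0.69 ± 0.11, adjusted p 0.00124).

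**Figure D2:**
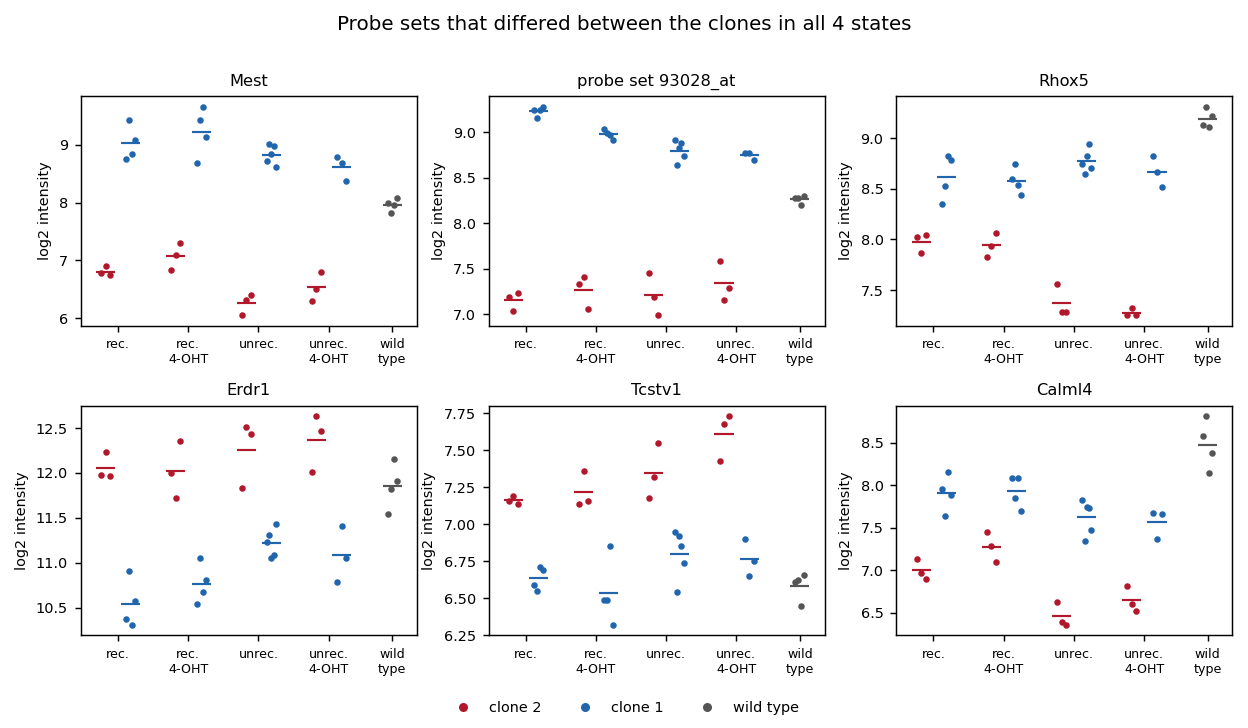
Log2 intensity of 6 of the 9 probe sets that differed the same way in all 4 states. Each point is an array, each line a group mean, with recombined (rec.) and unrecombined (unrec.) cells, with and without 4-OHT, and wild type on the horizontal axis; clone 2 (red) lies apart from clone 1 (blue) in each state, and wild type lies between the clones for Mest and 93028_at.

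Of 45 measured genes on the list of actin, smooth-muscle, annexin, keratin and galectin genes, 7 fell in clone 2 and 0 rose, against 0.37% of all probe sets called lower. They were Acta2, Anxa1, Acta1, Krt18, Lgals1, Anxa3 and Tagln. The median difference over the list was -0.134, with 32 of the 45 below 0. Without clone 2 array 4 of the recombined group, 4 of the 7 passed. When only the 7 arrays were fitted, 3 did. In unrecombined cells Acta2 fell and the actin cross-linker gene Flna rose (0.40), and the other 43 were not called.

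Acta2, the α-actin of smooth muscle, read 6.84, 6.99 and 6.74 in recombined clone 2, against 8.20, 8.27, 8.44 and 8.38 in recombined clone 1. The clone 2 arrays were near wild type (6.67 ± 0.12, n = 4) and the clone 1 arrays more than 1 log2 unit above. The difference was -1.46 ± 0.14, or 2.75-fold lower (adjusted p 1.01e-07). It was -0.98 ± 0.13 (1.82e-05) in unrecombined cells and -1.18 ± 0.14 (7.75e-06) in recombined cells with 4-OHT, but -0.20 ± 0.14 (0.996) in unrecombined cells with 4-OHT. Acta1, the α-actin of skeletal muscle, read 6.08, 6.11 and 5.76 in recombined clone 2, against 7.25, 7.68, 6.77 and 7.02 in recombined clone 1. All 4 clone 1 arrays stood above every wild-type array (mean 5.85 ± 0.20, n = 4), and the clone 2 arrays overlapped the wild-type ones. The difference was -1.19 ± 0.16 (adjusted p 4.01e-05) in recombined cells and -0.10 ± 0.15 in unrecombined cells, and the interaction was -1.10 ± 0.22 (0.00717). The cytoplasmic actin gene Actg1 (0.04, adjusted p 0.999), the cardiac Actc1 (0.11, 0.999) and the enteric smooth-muscle Actg2 (0.02, 0.999) gave small differences.

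The promoters of these 2 actin genes are shown because both genes were lower in recombined clone 2 and because muscle actin genes are known CArG-box genes. The Acta1 stretch (chr8:123894776-123895025, minus strand) held 1 CArG box, in capitals, which starts 73 bases before the gene start. The Acta2 stretch (chr19:34255374-34255623, minus strand) held no exact match. Only the strict consensus of the box was searched, in which nothing but A and T stands between CC and GG. CArG boxes that depart from this consensus are known in the Acta2 promoter and were not counted, so a missing match does not mean that the stretch lacks the box. The consensus reads the same on both strands, and 1.47% of all promoter entries of this length held it. Of the 50 called symbols, 30 had an entry and 2 of these held a match, Acta1 and Fhl2.
Acta1: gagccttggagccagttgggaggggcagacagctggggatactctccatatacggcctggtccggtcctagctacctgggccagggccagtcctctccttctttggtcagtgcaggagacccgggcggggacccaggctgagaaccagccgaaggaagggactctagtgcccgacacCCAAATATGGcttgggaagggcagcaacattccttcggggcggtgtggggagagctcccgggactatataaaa
Acta2: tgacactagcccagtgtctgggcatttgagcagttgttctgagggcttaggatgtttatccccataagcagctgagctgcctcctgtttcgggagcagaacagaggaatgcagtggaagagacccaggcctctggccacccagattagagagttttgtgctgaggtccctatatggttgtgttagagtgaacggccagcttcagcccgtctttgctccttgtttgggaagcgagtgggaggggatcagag

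Anxa1, a membrane-binding annexin, was lower in clone 2 on all 3 of its probe sets. On 93038_f_at it read 7.58, 7.36 and 7.34 in recombined clone 2, against 8.83, 8.66, 9.09 and 8.88 in recombined clone 1 (-1.44 ± 0.15, adjusted p 6.01e-07), and the other probe sets gave -1.36 and -1.12. It was -0.24 before recombination and did not pass (adjusted p 0.248), and the interaction was -1.20 ± 0.21 (0.00155). Anxa3 differed by -0.81 ± 0.12 (adjusted p 0.000601), while Anxa2 (-0.48, 0.166) and Anxa5 (-0.30, 0.999) did not pass. Krt18, a keratin of simple epithelia, read 7.47, 7.59 and 7.32 in recombined clone 2, against 7.99, 9.0, 8.51 and 8.83 in recombined clone 1. Its spread was wider in clone 1, where array 1 was the lowest. The difference was -1.12 ± 0.21 (adjusted p 0.00635), and its partner Krt8 gave -0.66 ± 0.17 (0.118). A second, dim Krt18 probe set gave -0.09 (0.999). Lgals1, which encodes galectin 1, read 8.91, 8.76 and 8.49 in recombined clone 2, against 9.47, 10, 9.34 and 9.64 in recombined clone 1 (-0.89 ± 0.20, adjusted p 0.0278). It gave 0.29 in unrecombined cells (adjusted p 0.296), with an interaction of -1.19 ± 0.27 (0.0285), and its call was lost in 8 of 18 alternative settings. Tagln, an actin-bundling protein of smooth muscle, differed by -0.75 ± 0.18 (adjusted p 0.0472).

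**Figure D3:**
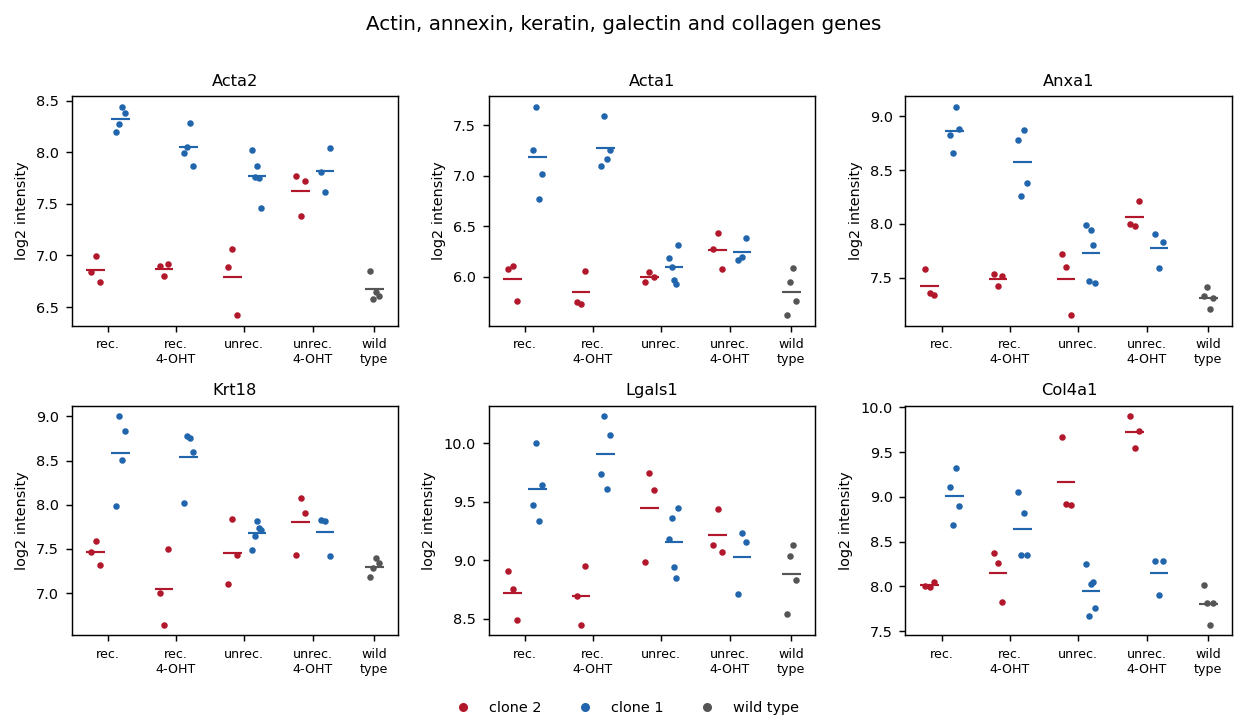
Log2 intensity of Acta2, Acta1, Anxa1, Krt18, Lgals1 and Col4a1, each point an array and each line a group mean, in recombined (rec.) and unrecombined (unrec.) cells with and without 4-OHT and in wild type. Without 4-OHT, recombined clone 1 (blue) lies above recombined clone 2 (red) for all 6 genes, while with 4-OHT the recombined clones overlap for Col4a1; for Col4a1 unrecombined clone 2 lies above unrecombined clone 1.

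Single genes of cell adhesion, coagulation and growth-factor signalling were also lower in recombined clone 2. Ccn4, a matricellular protein gene known as a Wnt target, read 4.99, 5.0 and 5.01 in recombined clone 2, against 5.81, 5.70, 5.77 and 6.08 in recombined clone 1. The difference of -0.84 ± 0.09 (adjusted p 1.8e-06) stood against -0.08 in unrecombined cells, with an interaction of -0.76 ± 0.13 (0.00147). F3, which encodes tissue factor, read 5.95, 5.98 and 5.93 in recombined clone 2, against 6.34, 7.08, 7.06 and 7.06 in recombined clone 1 (-0.94 ± 0.17, adjusted p 0.00434). Clone 1 array 1 was far below its 3 fellows but still above every clone 2 array. Phldb2, which encodes a cortical adaptor protein, differed by -1.10 ± 0.20 (adjusted p 0.00427) and the desmosomal cadherin gene Dsc2 by -0.84 ± 0.19 (0.0347). The other Dsc2 probe set gave -0.05 (0.999). Cav1, which encodes caveolin 1, differed by -0.36 ± 0.08 (adjusted p 0.0206) on 1 probe set and by -0.03 (0.999) on another, and Hmga2, a chromatin protein gene, by -0.73 ± 0.15 (0.00889). Of 36 genes on the list of FGF signalling and immediate-early response, 3 fell and 1 rose, against 0.37% and 0.113% of all probe sets: Phlda1 (-0.99 ± 0.17, adjusted p 0.00167), the EGF-family ligand gene Hbegf (-0.62 ± 0.10, 0.000706) and Dusp1 (-0.53 ± 0.11, 0.0163) fell, and the zinc-finger gene Egr1 rose (0.45 ± 0.10, 0.0403). On this list 2 of the 4 passed without clone 1 array 4, and 2 passed without clone 2 array 2, 3 or 4. Cdkn2b, an inhibitor of cyclin-dependent kinases, differed by -0.46 ± 0.08 (adjusted p 0.00295) and was the only one of 50 cell-cycle genes to pass, against 0.483% of all probe sets called.

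Col4a1 and Col4a2, neighbouring genes that encode the 2 chains of the common type IV collagen of basement membranes, changed direction. Col4a1 read 8.0, 7.99 and 8.05 in recombined clone 2, against 9.11, 8.69, 9.32 and 8.90 in recombined clone 1. Clone 2 was lower in recombined cells (-0.99 ± 0.19, adjusted p 0.00635) and higher in unrecombined cells (1.21 ± 0.18, 9.89e-05), a change of -2.20 ± 0.26 (interaction, 1.56e-05). The mean of clone 2 was 8.01 ± 0.03 after recombination and 9.17 ± 0.44 before it (n = 3 each). That of clone 1 was 9.0 ± 0.27 after it (n = 4) and 7.95 ± 0.23 before it (n = 5), with 7.80 ± 0.18 in wild type (n = 4). With 4-OHT, the recombined clones overlapped and the difference did not pass (-0.49, adjusted p 0.66), while unrecombined clone 2 was again higher (1.58, adjusted p 1.94e-05). Without 4-OHT the high mean thus belonged to clone 1 after recombination and to clone 2 before it. Col4a2 differed by -0.38 ± 0.07 (adjusted p 0.00209) in recombined and by 0.57 ± 0.06 (9.15e-07) in unrecombined cells, with an interaction of -0.95 ± 0.09 (1.77e-07). The laminin chain gene Lama1, of the same matrix, had an interaction of -0.98 ± 0.21 (adjusted p 0.0127), with -0.25 in recombined and 0.74 in unrecombined cells. Of 41 measured genes of primitive and visceral endoderm, a lineage that makes this matrix, 3 fell in recombined clone 2 (Col4a1, Col4a2 and Krt18). None rose, against 0.37% of all probe sets called lower and 0.113% called higher. In unrecombined cells 10 of the 41 rose in clone 2 and 2 fell, against 5.43% of all probe sets called higher and 6.04% called lower. The interaction was called for 4 of the 41, each with a negative sign, against 0.266% of all probe sets.

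Myb and Calcoco2 had the largest rises among named genes that were not called before recombination. Myb, a transcription factor of progenitor cells, read 5.33, 5.33 and 5.28 in recombined clone 2, against 4.30, 4.43, 4.47 and 4.72 in recombined clone 1, all below the wild-type mean of 5.89 ± 0.15 (n = 4). The difference was 0.83 ± 0.15 (adjusted p 0.0042) in recombined cells and -0.09 (0.696) in unrecombined cells, with an interaction of 0.92 ± 0.21 (0.0267). A second Myb probe set gave 0.07 (0.999). Calcoco2, which encodes an autophagy receptor, read 8.43, 8.33 and 7.97 in recombined clone 2, against 7.44, 7.40, 7.79 and 7.62 in recombined clone 1 (0.68 ± 0.13, adjusted p 0.00737). It differed by 0.81 with 4-OHT (adjusted p 0.00119) and by -0.14 in unrecombined cells (0.46), and the interaction was 0.83 ± 0.18 (0.0207). Smaller rises were those of the adhesion gene Emb (0.48 ± 0.11, adjusted p 0.0391), the ubiquitin-like interferon target Isg15 (0.43 ± 0.10, 0.0409) and Isoc1 (0.33 ± 0.08, 0.0411). In unrecombined cells Emb (-0.34, adjusted p 0.0362, limma) and Isg15 (-0.51, 0.0013) were called in the opposite direction, lower in clone 2. Isoc1 was not called there (-0.22, 0.0507). The calls of Emb, Isg15, Egr1 and Isoc1 were each lost in 9 or more of 18 alternative settings, and the other Emb probe set gave -0.34 (0.999).

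Of 36 measured genes of the interferon response and antigen presentation, 0 fell and 1 rose between the recombined clones, against 0.37% of all probe sets called lower and 0.113% called higher (limma; 0 fell and 5 rose with unadjusted p under 0.05). In unrecombined clone 2 against clone 1, 11 of the 36 fell and 1 rose, against 6.04% of all probe sets called lower and 5.43% called higher. Calls over all probe sets were thus also fewer after recombination, 0.483% against 11.5%. The interaction, which was called for 1.07% of all probe sets (0.805% with a positive and 0.266% with a negative sign), was called for 9 of the 36, each with a positive sign: Gbp2, Gbp2b, Gbp3, Irgm1, Psmb8, Psme1, H2-K1, Irf1 and Isg15. Gbp2, an interferon-induced GTPase, read 7.89, 7.89 and 7.70 in recombined clone 2, against 7.55, 7.52, 7.54 and 7.59 in recombined clone 1. The clones stood close after recombination (0.27 ± 0.08, adjusted p 0.216), against -1.67 ± 0.08 (8.71e-15) before it, and the interaction was 1.95 ± 0.11 (2.23e-12). The mean of clone 2 was 7.83 ± 0.11 after recombination and 6.96 ± 0.13 before it (n = 3 each), and that of clone 1 was 7.55 ± 0.03 (n = 4) after it and 8.63 ± 0.10 (n = 5) before it. Wild type, at 7.96 ± 0.08 (n = 4), lay between the unrecombined clones. Gbp2b had an interaction of 1.73 ± 0.16 (adjusted p 7.32e-08), Gbp3 of 1.52 ± 0.21 (0.000202) and the immunoproteasome subunit gene Psmb8 of 1.74 ± 0.27 (0.000661). Pim2, a kinase gene on no interferon list here, had one of 1.66 ± 0.28 (0.00147), while its second probe set gave 0.41 (0.115).

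**Figure D4:**
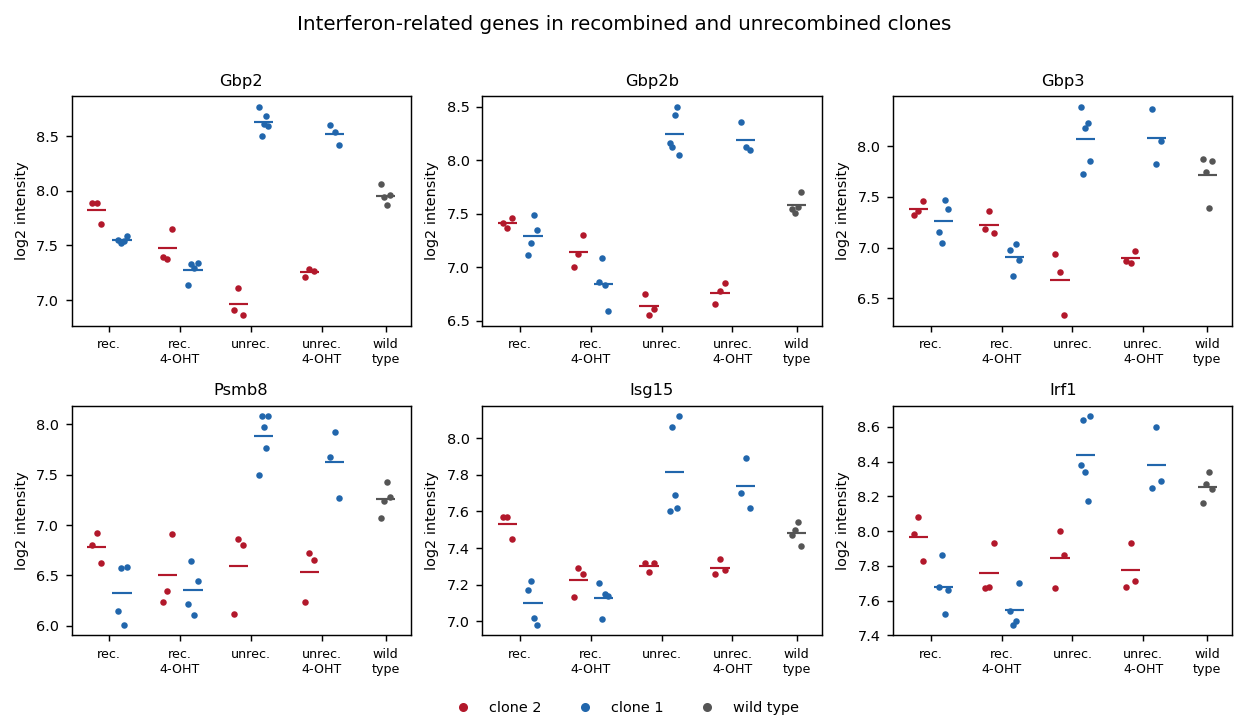
Log2 intensity of 6 genes of the interferon-response list, each point an array and each line a group mean. Unrecombined (unrec.) clone 2 (red) lies below unrecombined clone 1 (blue) with and without 4-OHT for all 6, while the recombined (rec.) clones lie closer together. The recombined clones overlap without 4-OHT for Gbp2b, Gbp3 and Irf1, and with 4-OHT for Gbp2b, Psmb8, Isg15 and Irf1. For Gbp2 the interaction was 1.95 log2 units.

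The arrays with 4-OHT gave the same contrast in other samples of the same clones. There, 53 probe sets (0.427%) differed between recombined clone 2 and clone 1, 17 higher (0.137%) and 36 lower (0.29%). All 60 probe sets called without 4-OHT kept their sign with 4-OHT, against 45.3% of all probe sets, and 31 of them passed in the same direction: 25 lower and 6 higher. Across the 60 the 2 sets of differences had a Pearson correlation of 0.94, given as a description because the probe sets were chosen on 1 of the 2 axes. In unrecombined cells without 4-OHT, 45 of the 60 kept their sign, against 51.7% of all probe sets. In unrecombined cells with 4-OHT, 33 did, against 51.6%, with 10 called the same way and 4 the opposite way. In all, 100 probe sets (0.805%) were called there, 60 higher (0.483%) and 40 lower (0.322%). The 9 probe sets called in the same direction in all 4 states were Erdr1, Tcstv1, Gm20767, AF067061 and 96215_f_at, which were higher in clone 2, and Mest, 93028_at, Rhox5 and Calml4, which were lower.

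Hhex, the corepressor gene Tle4 and the ligand gene Nodal were not called between the recombined clones. Hhex read 6.25, 6.21 and 6.08 in recombined clone 2, against 6.13, 6.29, 6.42 and 6.30 in recombined clone 1, and the groups overlapped (-0.11 ± 0.08, adjusted p 0.999). Which part of the transcript the probes cover, and so whether they read the insertion, is not given in the sources used here. Tle4, of the Groucho family, read 8.66, 8.96 and 8.45 in recombined clone 2, against 8.15, 9.09, 8.50 and 8.71 in recombined clone 1 (0.08 ± 0.25, adjusted p 0.999). Nodal, of the TGF-β family, read 7.77, 7.90 and 7.74 in recombined clone 2, against 7.49, 7.95, 7.52 and 7.78 in recombined clone 1 (0.12 ± 0.15, 0.999). The groups overlapped for all 3 genes, and a p that misses the threshold does not show that the clones were alike.

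Of 32 gene lists, 18 had no member called between the recombined clones (limma, adjusted p under 0.05). These 18 lists held 488 members, counting a gene once per list, of which 18 were higher and 15 lower in clone 2 at an unadjusted p under 0.05. That is 6.76% of them, against 4.23% of all probe sets. They included 36 pluripotency genes (median difference 0.053), 28 Nodal and TGF-β genes (0.039), 43 Wnt genes (0.024), 31 primitive-streak and mesoderm genes (-0.018), 31 neuroectoderm genes (0.038) and 23 cholesterol genes (0.07). Pou5f1, which encodes the core pluripotency factor Oct4, read 11.60, 11.90 and 11.52 in recombined clone 2, against 10.62, 11.77, 10.67 and 11.23 in recombined clone 1, and the groups overlapped (0.60 ± 0.32, adjusted p 0.999). Of the 23 cholesterol genes, 8 fell in unrecombined clone 2 against clone 1, where 6.04% of all probe sets were called lower, and 0 were called in unrecombined cells with 4-OHT (limma; 2 higher and 3 lower at an unadjusted p under 0.05).

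The cells carried ES cell markers at high level: all 8 such markers had means above the array median in both recombined clones, with summed intensities of 17648 to 19807 in clone 2 and 15817 to 20291 in clone 1. The 7 fibroblast or feeder markers summed to 954 to 1173 in clone 2 and 1001 to 1417 in clone 1, with 3 of the 7 above the array median in both. The 6 primitive or visceral endoderm markers summed to 791 to 908 in clone 2 and 784 to 869 in clone 1. These ranges overlapped, and no marker passed the test. The 3 neuroectoderm markers summed to 527 to 624 in clone 2 and 373 to 508 in clone 1 and did not overlap, though none passed. On arrays of whole cultures, fewer cells of a type and less RNA per cell cannot be told apart.

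Beyond single genes, probe sets of chromosome 8 as a whole were slightly higher in clone 2 than in clone 1. Of 548 probe sets that RefSeq (GRCm38.p6) places there, 73.4% had a difference above 0 in recombined cells, and their median lay 0.073 log2 units above that of the other placed probe sets. The 19 other chromosomes lay between -0.029 and 0.015. The shift between the clones was 0.043 in recombined cells with 4-OHT, 0.141 in unrecombined cells and 0.142 in unrecombined cells with 4-OHT. Against wild type and without 4-OHT, the mean shift of clone 2 was 0.066 in recombined and 0.055 in unrecombined cells. That of clone 1 was -0.016 and -0.08. With 4-OHT clone 2 lay at 0.053 and 0.056, and clone 1 at 0.005 and -0.074. Unrecombined clone 1 was thus below wild type. Over the 314 chromosome 8 probe sets in the upper part of the intensity range, each array's shift from the wild-type mean was 0.117, 0.115 and 0.112 in recombined clone 2, against -0.045, 0.024, -0.040 and -0.021 in recombined clone 1. All 3 clone 2 arrays were above all 4 clone 1 arrays. Recombined cells with Hex itself at Rosa26 read 0.082 to 0.135 (4 arrays), so a shift of this size was also seen outside clone 2. Unrecombined Hex cells read -0.123 to -0.066. No chromosome 8 probe set was called higher in clone 2 by limma, but 65 were higher and 12 lower at an unadjusted p under 0.05. The 4 called there, Acta1, Col4a1, Col4a2 and Cpe, a peptide-processing enzyme gene, were all lower in clone 2. The shift was noticed among all chromosomes after the values were seen and is given as a description. The cause was not tested.

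**Figure D5:**
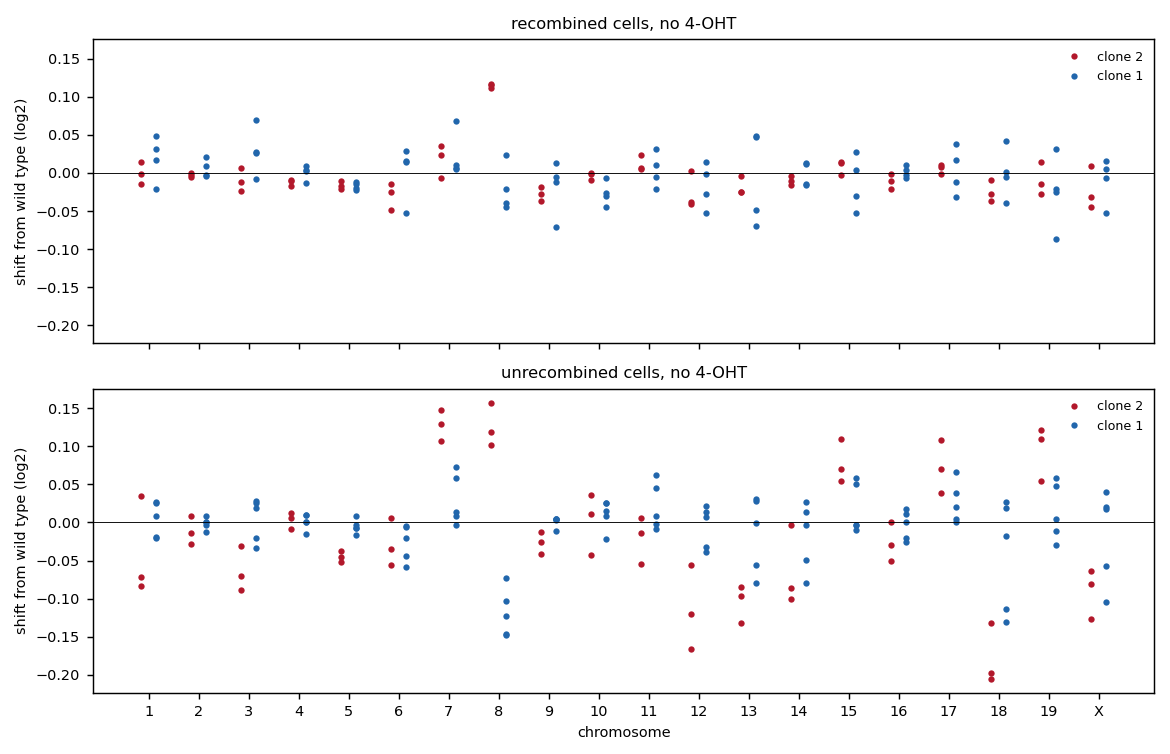
Shift of each chromosome in each array (log2), as the median difference from the wild-type mean over its brighter probe sets minus that of all other placed probe sets, for recombined cells (upper panel) and unrecombined cells (lower panel) without 4-OHT, with clone 2 in red and clone 1 in blue. In recombined cells chromosome 8 of clone 2 stands apart from that of clone 1, at 0.112 to 0.117. Recombined Hex cells, not drawn, read 0.082 to 0.135 on chromosome 8. Unrecombined cells show a wider spread on several chromosomes.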

How the data were processed

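The data are 44 Affymetrix MG-U74Av2 arrays of biotin-labelled total RNA. The deposited values are linear intensity per probe set, which the authors made with RMA, per the submitters' processing notes. RMA corrects background, normalises by quantiles and summarises probes. Its version, and which arrays were normalised together, are not given in the sources used here. Values were converted to log2. Of 12488 probe sets, 66 control sets were left out and 12422 tested with no intensity filter. By the platform annotation, 10833 probe sets carry 1 symbol, 396 carry several and 1193 carry none. The Entrez IDs of 10817 matched the RefSeq table of GRCm38.p6, used for names, chromosomes and promoter sequences.

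Groups came from the labels; the code of 1 recombined clone 2 array with 4-OHT holds a stray minus sign, and its words were followed. Of 40 assigned arrays, 32 in 9 groups (both HexERTVP2 clones and wild type) were fitted together with limma 3.58.1 in R 4.3.3 (lmFit, eBayes, 23 residual degrees of freedom), with two-sided tests and Benjamini-Hochberg adjustment over all probe sets at 0.05. There were 7 comparisons: clone 2 minus clone 1 in 4 states, the interaction of clone with recombination, and each recombined clone against wild type. The text names up to 15 rises and 15 falls with the largest changes in recombined cells (10 rises qualified), and 5 of each for the interaction, among called probe sets with 1 symbol. It also names Hhex, Tle4, Nodal and leading list members. Other genes and probe sets given with values were chosen after their values were seen. The members, lists and alternatives were chosen with earlier results of these data known. List genes are represented by their brightest probe set. The procedure was tested on simulated data with independent noise in each probe set and array, which cannot show how noise shared across an array affects the calls. Python 3.11.15 with matplotlib 3.10.9 drew the figures.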

Additional observations from a re-analysis of the deposited data

Results flagged for a closer look

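In groups of 4 or 5 arrays, 2 of 93 gene-and-group combinations had an array far from its fellows, where chance gives about 1 in 20. F3 in recombined clone 1 had array 1 at 6.34 against 7.06 to 7.08 in the others, a gap of 0.976 of the range. Phlda1 in wild type had array 3 at 6.07 against 6.52 to 6.61, a gap of 0.843 of the range.

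Among the genes picked for the largest changes in recombined cells or in the interaction, the difference between the clones changed with recombination for 17 (interaction test in limma). Other genes given in the text, among them Rhox5 and Col4a2, also had a called interaction and are not counted here. The change, recombined minus unrecombined, was positive for Gbp2 (1.95), Psmb8 (1.74), Gbp2b (1.73), Pim2 (1.66), Gbp3 (1.52), Isg15 (0.95), Myb (0.92), Calcoco2 (0.83), Emb (0.81), Egr1 (0.64) and Isoc1 (0.54). It was negative for Col4a1 (-2.2), Anxa1 (-1.2), Lgals1 (-1.19), Acta1 (-1.1), Lama1 (-0.98) and Ccn4 (-0.76).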

How the results depend on the processing

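Values below are counts of called probe sets in the order recombined clones without 4-OHT, unrecombined clones without 4-OHT, interaction, recombined clones with 4-OHT, unrecombined clones with 4-OHT, recombined clone 2 against wild type, recombined clone 1 against wild type, and calls shared by recombined and unrecombined clones. The main counts were 60, 1425, 133, 53, 100, 34, 170 and 16. With all 40 assigned arrays they were 33, 250, 36, 24, 43, 12, 83 and 7, and at an adjusted p under 0.01 they were 36, 389, 52, 28, 56, 13, 96 and 10. With only the groups compared they were 15, 215, 39, 13 and 18 for the first 5, then 73 for clone 1 against wild type and 7 shared. With array weights 120, 727, 1099, 332 and 132 moved (the first 2, both with 4-OHT, and clone 2 against wild type). Adding the β-actin ratio to the model, 94, 2956, 477, 226, 69, 256 and 28 moved, that is all but recombined clones with 4-OHT. Among probe sets above the median intensity the counts were 38, 832 and 35 (recombined clones, unrecombined clones, and recombined clones with 4-OHT), and quantile normalisation gave 22 for clone 2 against wild type. Leaving out 1 array at a time gave 29 to 53, 401 to 1924, 62 to 241, 20 to 49, 56 to 92, 14 to 28, 115 to 196 and 10 to 18. Beyond the arrays named in the report, the interaction count was 88 without recombined clone 1 array 1, 68 and 62 without recombined clone 2 arrays 2 and 3, and 83 and 241 without unrecombined clone 2 arrays 3 and 2. With 4-OHT the count was 20 and 29 without recombined clone 2 arrays 2 and 3, and 56 and 62 without unrecombined clone 2 array 4 and unrecombined clone 1 array 2. Recombined clone 2 against wild type gave 14, 15 and 15 calls without recombined clone 2 arrays 2, 3 and 4, and 21, 19 and 15 without wild-type arrays 2, 3 and 4. Fitting 39 arrays, median centring, only groups without 4-OHT (66, 58 and 46 calls for the first) and eBayes with trend and robust settings kept each available count within 1.5 times; the fit of groups without 4-OHT gives none with 4-OHT. Deviations of same-numbered arrays of the 2 clones correlated with mixed signs. Without 4-OHT they gave -0.06, -0.57 and 0.35 after recombination (arrays 2, 3 and 4). Before it they gave 0.56, 0.32 and -0.05 (arrays 1, 2 and 3). With 4-OHT they gave -0.42, 0.34 and 0.26 after recombination (arrays 2, 3 and 4), and -0.59 and -0.4 before it (arrays 2 and 4). Whether arrays with the same number shared a batch was not tested. With the replicate number as a block the counts were 63, 1695, 195, 67, 117, 39, 204 and 18. Of 701 results for single genes under an alternative, 601 kept direction and call, 100 kept direction and lost the call, and 0 reversed. Erdr1, Mest, Acta2, Anxa1, Prss23, Ccn4 and Anxa3 kept their calls in recombined cells in every setting in which they were tested. Prss23 and Ccn4 were not tested among the probe sets above the median intensity. The causes of these changes were not tested. Signal over background limits what can be seen for dim probe sets; the median log2 intensity was 6.77.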

Other observations

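The 4 arrays that entered no comparison were read for the leading genes as values. Mest read 8.91, 6.51, 6.72 and 7.08, and probe set 93028_at read 9.20, 7.39, 7.37 and 7.23. Erdr1 read 10.49, 12.59, 11.96 and 12.08, and Calml4 read 7.89, 6.32, 6.82 and 7.29. Tcstv1 read 6.95, 7.41, 7.13 and 7.26. Acta2 read 8.26, 7.15, 6.77 and 6.95, and Col4a1 read 8.42, 9.54, 8.23 and 8.28. For Mest, 93028_at, Erdr1 and Acta2 the first of the 4 arrays stood apart from the other 3. For Calml4 the first was the highest, with the other 3 spread from 6.32 to 7.29.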
